A study of Mus musculus with 6 samples.

Results

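Ybx1 belongs to a small group of mouse genes whose proteins carry a cold-shock domain, and 7 of them were considered here by name: Ybx1, Ybx2, Ybx3, Carhsp1, Csdc2, Lin28a and Lin28b. Values were taken for the 6 that were found by symbol among the 17348 genes of the deposited table, and Lin28a was not analysed here. The table holds RNA-seq of embryonic mouse cortex at E18.5, with 3 Ctrl and 3 cKO libraries. The cKO embryos carried Nestin-Cre and were Ybx1 fl/fl, whereas Ctrl embryos are given as WT in the labels and as Ybx1 fl/fl littermates without Cre in the study's account of its mice, which were made in C57BL/6J. Nestin-Cre acts in the neural lineage, and vessel, blood, microglial and meningeal cells are of other origin. Recombination in each cell type was not tested here. The comparison asks how much of the summed mRNA of these genes was Ybx1 in Ctrl cortex, and whether any relative was higher once Ybx1 was deleted.

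The cold-shock domain is an ancient fold that binds single-stranded nucleic acid, and its contacts are made largely by a pair of short motifs, RNP1 and RNP2. In the Y-box proteins Ybx1, Ybx2 and Ybx3 the domain is joined to a long basic tail, and these proteins package mRNA into ribonucleoprotein particles (mRNPs) that govern its translation and decay. Through its cold-shock domain Ybx1 also reads 5-methylcytosine (m5C) in mRNA. Ybx1 is the broadly expressed member, Ybx2 is best known from germ cells, and Ybx3 is a repressor that also goes by the name of cold-shock domain protein A. Carhsp1 and Csdc2 are short proteins with a single cold-shock domain, of which Carhsp1 binds and stabilises mRNA and Csdc2 is known from brain. Lin28a and Lin28b join a cold-shock domain to zinc knuckles and block the maturation of let-7 microRNAs in early progenitors.

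The sequences below show how the core of the domain is written in each gene. Each line is the coding strand of the spliced mRNA, 5′ to 3′, from the codon of the conserved phenylalanine through RNP1 (the first capitals, 18 bases) to RNP2 (the second capitals, 12 bases), taken from the GRCm38 genome and GENCODE M21.
Ybx1: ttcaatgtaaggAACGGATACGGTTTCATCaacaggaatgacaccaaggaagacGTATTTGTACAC
Ybx2: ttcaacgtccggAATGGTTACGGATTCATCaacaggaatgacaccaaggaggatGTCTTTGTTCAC
Ybx3: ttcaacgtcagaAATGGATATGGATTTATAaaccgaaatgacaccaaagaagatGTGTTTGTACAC
Carhsp1: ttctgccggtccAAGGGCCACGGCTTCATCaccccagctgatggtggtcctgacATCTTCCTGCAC
Csdc2: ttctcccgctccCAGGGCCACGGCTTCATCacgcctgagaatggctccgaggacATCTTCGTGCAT
Lin28a: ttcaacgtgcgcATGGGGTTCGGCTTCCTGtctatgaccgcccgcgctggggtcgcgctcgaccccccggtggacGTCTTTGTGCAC
Lin28b: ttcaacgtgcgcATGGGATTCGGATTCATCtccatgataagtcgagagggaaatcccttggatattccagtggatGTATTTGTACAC

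Ybx2 had 15 of the 18 RNP1 bases in common with Ybx1, Ybx3 had 13, Carhsp1 14, Csdc2 13, Lin28a 11 and Lin28b 14. Between the motifs lay 8 codons in Ybx1, Ybx2, Ybx3, Carhsp1 and Csdc2, and 15 in Lin28a and Lin28b. The translated domain separated the genes more clearly than these bases did. Against a window of 70 residues around the domain of Ybx1, Ybx3 was identical at 70 of 70 aligned residues and Ybx2 at 66 of 69 (95.7%). Lin28b was identical at 31 of 62 aligned residues, Lin28a at 29 of 62 (46.8%), Carhsp1 at 11 of 27 (40.7%) and Csdc2 at 13 of 32 (40.6%). At the RNA level the longest stretch that Ybx1 shared exactly with a relative was 26 bases in Ybx2 and 20 bases in Ybx3, and it was 13 or 14 bases in the others.

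In the GRCm38 annotation the genes lie on 6 chromosomes, Ybx1 and Lin28a both on chromosome 4. Ybx1 lies at chr4:119277981-119294604 on the minus strand, with 8 exons and 322 residues. Ybx2 is at chr11:69935796-69941605 (plus strand, 359 residues) and Ybx3 at chr6:131364855-131388476 (minus strand, 361 residues). Carhsp1 is at chr16:8658580-8672155 (minus strand, 148 residues) and Csdc2 at chr15:81936759-81950941 (plus strand, 154 residues). Lin28b is at chr10:45376620-45486395 (minus strand, 271 residues) and Lin28a at chr4:134003330-134018841 (minus strand, 209 residues). The stretch printed above runs from exon 2 into exon 3 in Ybx1, Ybx2 and Ybx3. It lies within exon 3 in Carhsp1 and Csdc2 and within exon 2 in both Lin28 genes.

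The deletion of exons 3 to 8 of Ybx1 cuts through this stretch. Exons 1 and 2 hold 465 of the 1628 bases of the transcript (28.6%) and 224 of its 969 coding bases, so 745 coding bases are removed. The RNP1 codons, at bases 443 to 460 of the transcript, lie in exon 2, and the RNP2 codons, at bases 485 to 496, lie in exon 3. Of the 210 bases that code for the domain window, 62 are in the exons that remain.

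**Figure D1:**
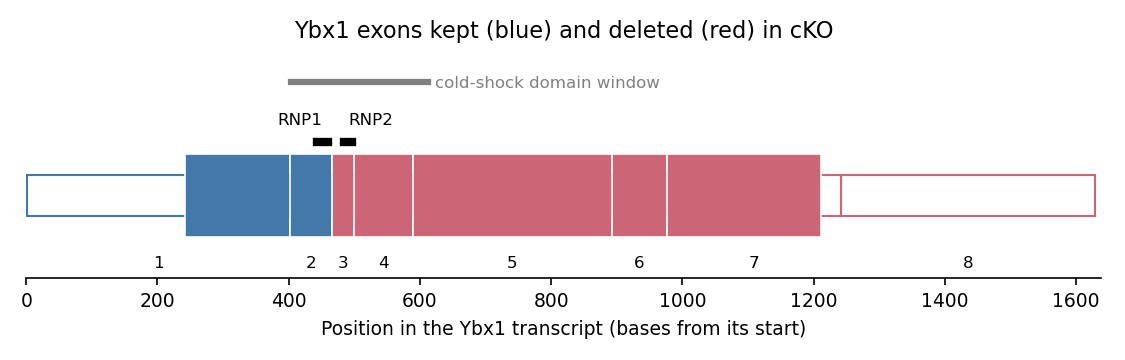
Map of the Ybx1 transcript drawn to scale, in bases from its start, with exon numbers below. Tall boxes are coding and low boxes untranslated, exons 1 and 2 (blue) remain after recombination and exons 3 to 8 (red) are deleted. RNP1 lies in exon 2 and RNP2 in exon 3, so that the deletion separates the motifs.

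Estimated counts summed to between 15091951 and 16885451 per library, at which 3 counts correspond to 0.178 to 0.199 CPM (counts scaled to the library total). The deposited TPM values are scaled for transcript length and are used below to compare genes with each other, whereas the test of each gene was run on counts. Library 2 of Ctrl stood apart: its FPKM values summed to 522819 against 424951 to 446619 in the other libraries, and its counts differed from those of the other Ctrl libraries with a chi-square per degree of freedom of 41.5 and 65.4, against 10.6 between those 2 libraries and 3.52 to 9 within cKO. The groups also parted by Y-linked transcripts. Eif2s3y had 1422 to 1756 counts in the Ctrl libraries and 0 or 1 in the cKO libraries, and Kdm5d, Ddx3y and Uty also parted without overlap, so that genotype and embryonic sex cannot be told apart here. Markers of cortical excitatory neurons were detected as labelled, for example Neurod6 at 1032 TPM in Ctrl, and no marker of this list was at 0. The labels do not say whether a library is 1 embryo, and p-values measure only the spread between these libraries.

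Ybx1 was examined first, since it is the targeted gene. Its level was 1174, 1312 and 1149 TPM in Ctrl libraries 1 to 3, and 29.7, 30.6 and 30.9 TPM in cKO libraries 1 to 3. All cKO libraries thus lay far below all Ctrl libraries and close to each other. The mean fell from 1212 ± 87.9 TPM to 30.4 ± 0.645 TPM (SD, n = 3 each), which is 2.51% of Ctrl. In estimated counts the Ctrl libraries held 16184, 22152 and 13950, and the cKO libraries 387, 394 and 390. The log2 fold change was -5.47 (SE 0.16, edgeR's quasi-likelihood test, adjusted p = 6.95e-07), or 44.4 times lower. On TPM alone the two-sided exact permutation p was 0.1, the smallest that 3 libraries against 3 can give. In Ctrl cortex Ybx1 ranked 103rd of the 17348 genes by mean TPM, within the top 0.594%.

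A small amount of Ybx1 signal remained in every cKO library. The estimated count per TPM, which reflects the transcript length assigned to a gene, was 0.630 times that of the median gene in both groups, so that Ybx1 was scaled by the same length in Ctrl and cKO. The table gives 1 value per gene, and the exons from which the remaining reads came were not tested. Markers of cells outside the neural lineage were present: the summed TPM of 6 endothelial and mural markers was 208.9 to 243.8 in Ctrl and 248.1 to 302.8 in cKO, without overlap, and that of 5 meningeal fibroblast markers was 4.79 to 6.07 and 7.37 to 7.69. In CPM, a scale tried after seeing the data, the endothelial and mural sums overlapped (294.3 to 348.3 and 330.1 to 401.3) and the meningeal sums did not (10.4 to 12.1 and 13.6 to 14.4). Of the 6 and 5 markers, 6 and 3 could be tested, and Cdh5, Pdgfrb and Col1a2 had all cKO libraries above all Ctrl libraries in CPM (edgeR adjusted p = 0.514, 0.731 and 0.763), as did 7.35% of all genes tested. No marker was at 0 in all libraries, and their cells' part in the remaining Ybx1 was not tested. The summed TPM of 6 erythroid markers overlapped (7580 to 8403 in Ctrl and 7998 to 9442 in cKO), as did that of 6 radial glia markers (1398 to 2031 and 1568 to 1883) and 5 excitatory neuron markers (1148 to 1620.0 and 1284 to 1474). Within these lists, Slc17a7, a glutamate transporter gene of excitatory neurons, had 30.7 to 34.1 CPM in Ctrl and 51.6 to 55.5 CPM in cKO (log2 fold change 0.73, edgeR adjusted p = 0.0722). Pax6, a radial glia transcription factor gene, had 37.5 to 45.1 and 50.5 to 52.4 CPM (log2 fold change 0.31, edgeR adjusted p = 0.608). Cdh5, Pdgfrb, Col1a2, Slc17a7 and Pax6 were named after their values were seen. In bulk tissue, fewer cells of a type and less RNA per cell cannot be told apart. Apart from the family, 6 annotated genes share an exact run of at least 50 bases with the Ybx1 transcript, up to 149 bases in length, and were not analysed here. How reads shared with such copies were divided is not given in the sources used here.

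Ybx1 was the bulk of cold-shock domain mRNA in Ctrl cortex. Its share of the summed TPM of the 6 genes was 76.6%, 78.0% and 78.7% in the Ctrl libraries, with a mean of 77.7% ± 1.08 (SD, n = 3). In the cKO libraries it was 7.72%, 8.39% and 8.80%, with a mean of 8.30% ± 0.547. The share varied little within a group, and the library that stood apart by FPKM lay between the other Ctrl libraries in this measure. Among the 3 Y-box genes alone, Ybx1 was 88.2% ± 0.469 of the TPM in Ctrl and 15.9% ± 1.11 in cKO.

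The summed level of the 6 genes fell with Ybx1 and was not made up by the others. It was 1534, 1682 and 1460 TPM in the Ctrl libraries and 384.6, 365.0 and 351.3 TPM in the cKO libraries. The cKO mean, 367.0 ± 16.7 TPM, was 23.5% of the Ctrl mean of 1559 ± 113 TPM. Without Ybx1, the 5 relatives summed to 359.7, 370.2 and 311.6 TPM in Ctrl and to 354.9, 334.4 and 320.4 TPM in cKO. Those ranges overlapped, and the difference of means was -10.6 TPM (347.2 ± 31.3 against 336.6 ± 17.4). It was 0.952 TPM without Ctrl library 2 and -28.4 TPM without Ctrl library 3. Summed in CPM, which is not per length, the difference was -45.0. Every single relative also stood lower in cKO, as a percentage of its Ctrl mean, by CPM than by TPM. Ybx3 was at 88.03% by CPM and 98.8% by TPM, Carhsp1 at 84.7% and 94.3%, and Csdc2 at 85.0% and 95.05%. Ybx2 was at 98.9% and 109%, and Lin28b at 94.3% and 104.7%. The count per TPM of Ybx3 was 0.499 times that of the median gene in Ctrl and 0.496 times in cKO. What sets the scales apart was not tested.

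**Figure D2:**
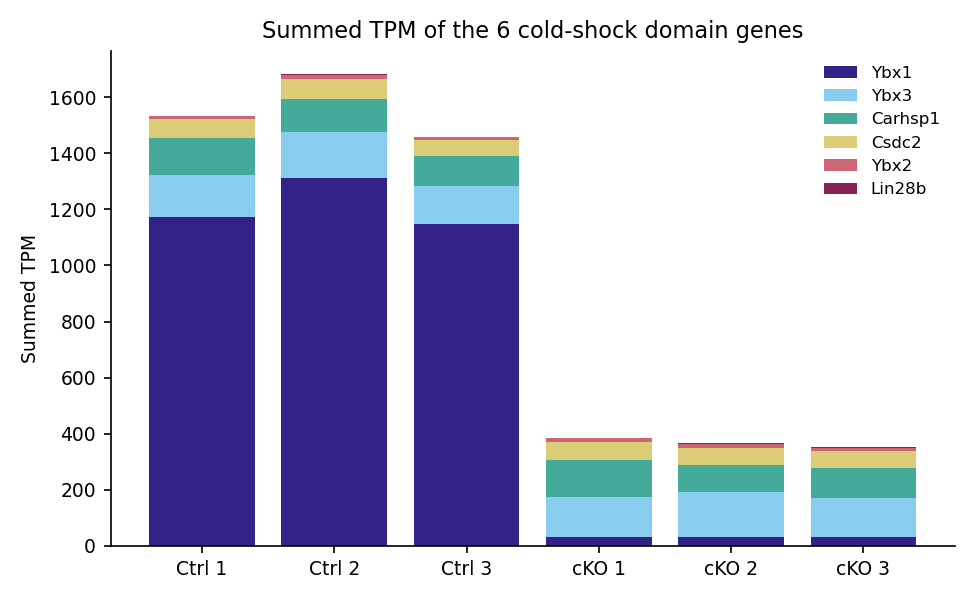
Stacked bars of the TPM of the 6 cold-shock domain genes in each library, on an axis that starts at 0, with 1 colour per gene. The Ybx1 segment makes up 76.6% to 78.7% of the bar in Ctrl and 7.72% to 8.80% in cKO, while the segments of the 5 relatives sum to 311.6 to 370.2 TPM in Ctrl and 320.4 to 354.9 TPM in cKO.

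Of the 6 members, Ybx1 alone was called lower in cKO, and none of the 5 relatives was called in either direction (edgeR's quasi-likelihood test, adjusted p under 0.05), and none had an unadjusted p under 0.05. DESeq2 also called 0 of 5, and 20 higher and 73 lower over all genes. Over all 13570 genes tested, edgeR called 0.0221% higher and 0.0516% lower. How many of all genes had an unadjusted p under 0.05 was not counted, so such counts here and below lack a background. In CPM, 0 of the 5 relatives had every cKO library above every Ctrl library and 0 had every cKO library below, where 7.35% and 6.93% of all genes tested did so. Their median log2 fold change was -0.18, against 0.0027 over all genes tested. It was -0.079 without Ctrl library 2 and -0.31 without Ctrl library 3.

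Ybx3, the relative whose aligned domain window was identical to that of Ybx1, was the most abundant of them. Its level was 149.6, 165.9 and 133.8 TPM in the Ctrl libraries and 144.8, 161.2 and 138.0 TPM in the cKO libraries. The groups overlapped almost entirely, with library 2 the highest in each. The means were 149.7 ± 16.1 and 148.0 ± 11.9 TPM (SD, n = 3 each, exact permutation p = 0.8). By counts the log2 fold change was -0.18 (SE 0.15, 95% interval -0.53 to 0.16, edgeR adjusted p = 0.862). The interval corresponds to between 0.692 and 1.12 times the Ctrl level. In Ctrl the TPM of Ybx1 was 8.12 ± 0.409 times that of Ybx3, and in cKO it was 0.206 ± 0.0171 times (n = 3 each).

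Ybx2, the Y-box gene best known from germ cells, was low. It had 11.3, 14.7 and 12.03 TPM in the Ctrl libraries and 14.0, 14.8 and 12.7 TPM in the cKO libraries. The groups overlapped, and Ctrl library 1 was the lowest value. The log2 fold change by counts was -0.016 (SE 0.15, 95% interval -0.36 to 0.33, edgeR adjusted p = 0.989). On TPM the cKO mean was 109% of the Ctrl mean, and in CPM it was 98.9%. The count per TPM of Ybx2 ranged from 0.593 to 0.766 times that of the median gene between libraries, with a mean of 0.680 in both groups. Neither scale parted the groups (exact permutation p = 0.4 on TPM and 0.9 on CPM).

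The genes of the short cold-shock proteins came next to Ybx3 in abundance. Carhsp1 had 129.9, 117.9 and 109.5 TPM in the Ctrl libraries and 130.5, 96.7 and 109.6 TPM in the cKO libraries. The highest and the lowest of these 6 values were both from cKO. Its log2 fold change was -0.24 (SE 0.14, 95% interval -0.56 to 0.086, edgeR adjusted p = 0.819). Csdc2 had 67.9, 70.8 and 54.6 TPM in Ctrl and 64.0, 60.8 and 58.9 TPM in cKO. The cKO values of Csdc2 lay inside the Ctrl range, with a log2 fold change of -0.24 (SE 0.15, 95% interval -0.58 to 0.11, edgeR adjusted p = 0.839).

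Lin28b, the let-7 regulator, was the lowest of the 6 genes. It had 41, 44 and 61 counts in the Ctrl libraries and 59, 36 and 45 in the cKO libraries, or 0.930 to 1.66 TPM and 0.960 to 1.55 TPM. Ctrl library 3 and cKO library 1 were the highest, and the groups overlapped. The log2 fold change was -0.077 (SE 0.28, 95% interval -0.71 to 0.55, edgeR adjusted p = 0.967), the widest interval among the members. That interval runs from 0.612 to 1.47 times the Ctrl level, so that a change within it was not resolved by these libraries.

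**Figure D3:**
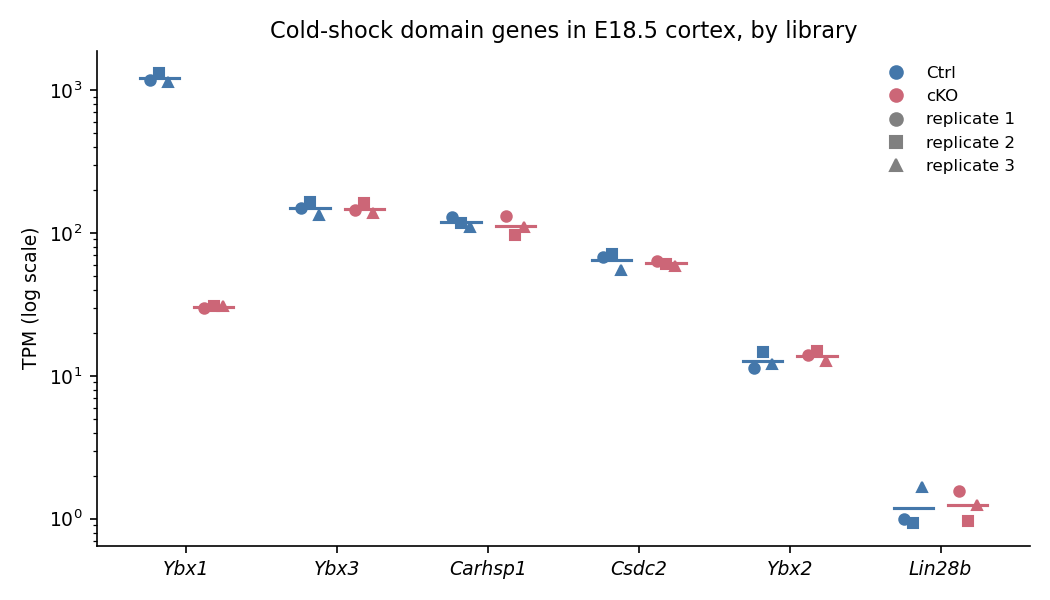
TPM of each cold-shock domain gene on a log axis, with 1 point per library (shape gives the replicate), Ctrl in blue, cKO in red and a line at each group's mean. Ybx1 drops from a mean of 1212 TPM to 30.4 TPM, and the Ctrl and cKO points of the other 5 genes overlap.

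The order of the genes by TPM was Ybx1, Ybx3, Carhsp1, Csdc2, Ybx2 and Lin28b in each of the 3 Ctrl libraries, and neighbours in this order did not overlap between libraries. The gap between Ybx3 and Carhsp1 was narrow, with the lowest Ybx3 value at 133.8 TPM and the highest Carhsp1 value at 129.9 TPM. In each of the 3 cKO libraries Ybx1 stood between Csdc2 and Ybx2, with the lowest Csdc2 value at 58.9 TPM, Ybx1 at 29.7 to 30.9 TPM and the highest Ybx2 value at 14.8 TPM. With Ybx1 deleted, Ybx3 made up 40.4% ± 3.38 of the summed TPM, Carhsp1 30.5% ± 3.77, Csdc2 16.7% ± 0.0561, Ybx2 3.77% ± 0.250 and Lin28b 0.341% ± 0.0712 (SD, n = 3). The corresponding shares in Ctrl were 9.59% ± 0.377, 7.66% ± 0.743, 4.12% ± 0.348, 0.812% ± 0.0705 and 0.0781% ± 0.0313. The sum was smaller in cKO, while the levels of the relatives themselves overlapped between groups.

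The intervals by counts give an approximate limit on how much mRNA a relative could have gained. Ybx1 lost 1181 TPM on average. At the upper end of its 95% interval, applied to its mean Ctrl TPM, Ybx3 would have gained 17.8 TPM, or 1.51% of that loss. The same limit was 7.30 TPM for Carhsp1, 5.19 TPM for Csdc2, 3.21 TPM for Ybx2 and 0.559 TPM for Lin28b. Added together, these upper limits came to 34.1 TPM, or 2.89% of the TPM that Ybx1 lost. That sum is not itself an interval, and it applies folds of counts to TPM levels. For every relative the fold by counts was lower than the ratio of mean TPM, for Ybx3 0.880 against 98.8% of Ctrl. Limits on the TPM scale would therefore be higher than these, and were not computed. For comparison, Ybx3 alone would have had to reach 8.89 times its Ctrl level to replace the TPM lost by Ybx1. All 5 relatives together would have had to reach 4.40 times theirs. These figures concern mRNA only, and protein of the relatives was not examined here. Over the 14 alternative fits the highest upper limit was 1.22 times the Ctrl level for Ybx3, 1.17 for Carhsp1 and Csdc2, 1.36 for Ybx2 and 1.75 for Lin28b. With these, the summed upper limits came to 69.8 TPM, or 5.91% of the loss, again with folds of counts applied to TPM levels.

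**Figure D4:**
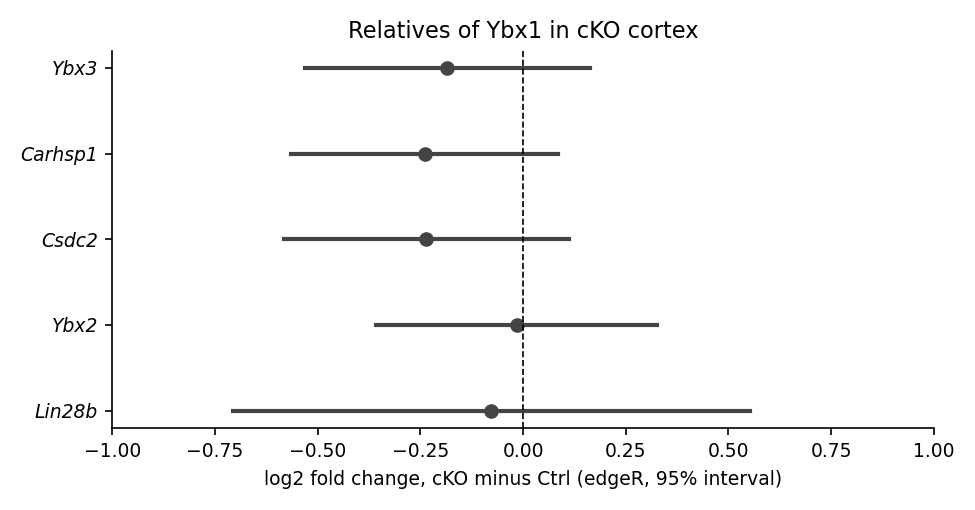
Log2 fold change of each relative of Ybx1 in cKO minus Ctrl, as points with the 95% interval from edgeR, 3 libraries per group. Each interval includes 0, and the highest upper end, 0.55, is that of Lin28b.

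Genes that work with these proteins were examined as 4 lists. Over all genes tested edgeR called 0.0221% higher and 0.0516% lower, so 0 calls in lists this short say little about them. Of 20 mRNP partners of Ybx1, 0 were called in either direction, 2 had an unadjusted p under 0.05, and their median log2 fold change was -0.027. The 3 most abundant were Caprin1, a stress granule protein gene (485.4 TPM in Ctrl, log2 fold change -0.052), Hnrnpu, which encodes a nuclear RNA-binding protein (383.4 TPM, 0.0060), and Pabpc1, which encodes the cytoplasmic poly(A)-binding protein (316.9 TPM). In CPM 4 of the 20 had all cKO libraries below all Ctrl libraries and 1 had them above, where 6.93% and 7.35% of all genes tested did so. Those below were Pabpc1, Pabpc4, G3bp1 and Stau1, and the one above was Lsm14a, named here after their values were seen.

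Pabpc1 stood at 376.1, 375.8 and 362.1 CPM in the Ctrl libraries and at 270.6, 290.4 and 274.8 CPM in the cKO libraries. The groups were well apart, with a log2 fold change of -0.41 (SE 0.10) that did not pass the test over all genes (edgeR adjusted p = 0.380). It passed with DESeq2 (adjusted p = 0.00750) and, in edgeR, without Ctrl library 2 (adjusted p = 0.0414). Ddx6, an mRNP helicase gene, passed without Ctrl library 2 as well (log2 fold change -0.46, edgeR adjusted p = 0.0427) and when length and GC content of transcripts were corrected for (-0.43, edgeR adjusted p = 0.048), against -0.30 and an adjusted p of 0.796 in the edgeR test of all libraries. With that correction and the replicate number as a block, Ddx6 kept its fold but was not called (-0.43, edgeR adjusted p = 0.0592). Ddx6 too was named after its values were seen.

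In the Lin28 and let-7 pathway, 13 of 15 listed symbols were found, the other 2 being older names of Tut4 and Tut7, and 12 genes could be tested. None was called (edgeR and DESeq2), where edgeR called 0.0221% of all genes tested higher and 0.0516% lower. In edgeR 0 had an unadjusted p under 0.05, and the median log2 fold change was 0.0086. The 3 most abundant were Mycn, a let-7 target that promotes progenitor growth (122.1 TPM in Ctrl, log2 fold change -0.12), and the microRNA processing genes Drosha (98.6 TPM, -0.00094) and Dgcr8 (64.8 TPM, -0.19). Trim71, itself a let-7 target, was listed at 0 TPM in all Ctrl libraries and at a mean of 0.030 TPM in cKO, and was too low to test. It is named because it was the listed gene of this pathway that could not be tested.

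A short list of RNA-binding and RNA-decay genes (Strap, Dis3 and Dis3l) and the m5C genes (Nsun2, Nsun6, Trdmt1 and Alyref) likewise gave 0 calls, of 3 and of 4, in edgeR, with 0 unadjusted p under 0.05 in either list. DESeq2 called none of them. Of all genes tested, edgeR called 0.0221% higher and 0.0516% lower. Strap had 163.8 ± 12.7 TPM in Ctrl and 188.0 ± 11.4 in cKO, and by counts its log2 fold change was 0.049 (edgeR adjusted p = 0.946). Dis3, an exosome nuclease gene, had 35.6 ± 13.8 and 36.9 ± 4.87 TPM. Dis3l, a relative of Dis3, had 22.4 ± 2.51 and 23.7 ± 2.09 TPM. Alyref, an mRNA export factor gene whose protein also binds m5C, had 106.1 ± 6.06 and 99.6 ± 8.17 TPM. The methyltransferase genes Nsun2 and Nsun6 had 48.9 ± 3.91 and 11.2 ± 4.31 TPM in Ctrl against 55.6 ± 5.87 and 12.9 ± 0.873 in cKO. Their log2 fold changes by counts were 0.042 and 0.071, and that of Alyref was -0.26 (SE 0.14, edgeR adjusted p = 0.796).

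**Figure D5:**
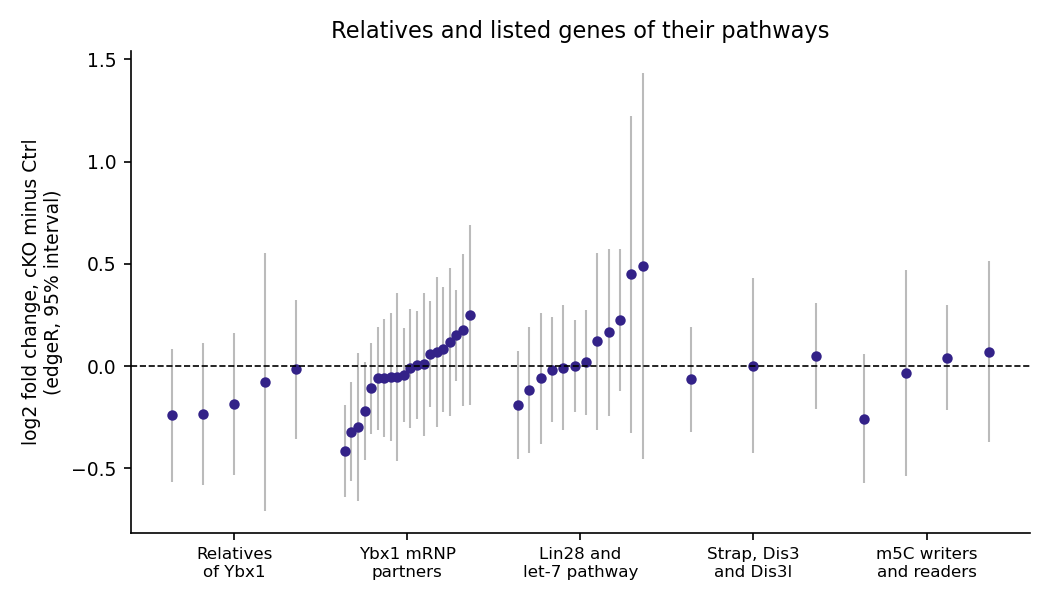
Log2 fold changes in cKO minus Ctrl (points) with 95% intervals from edgeR (grey) for the 5 relatives of Ybx1, 20 mRNP partners, 12 tested genes of the Lin28 and let-7 pathway, 3 genes of the Strap and Dis3 list, and 4 m5C genes. The medians of the relatives and of the mRNP partners are -0.18 and -0.027, and Pabpc1 is the lowest point at -0.41.

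By Pearson's r of log2 CPM, over the 6 libraries, Ybx1 was followed most closely by Eif2s3y (r = 0.998), Ccni (r = 0.997) and Nsa2 (r = 0.996). For Ybx1 the libraries form separate clusters, Ctrl and cKO, and Eif2s3y is Y-linked, so these values describe the split between the groups. Ybx3 was followed most closely by Mier2 (r = 0.9998), Mcat (r = 0.999) and Ssbp4 (r = 0.999). Like Ybx3, these 3 genes were highest in Ctrl library 2, where Ybx3 stood at 130.7 CPM against 87.8 to 103.0 CPM in the other libraries.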

How the data were processed

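RNA-seq was available for 3 Ctrl and 3 cKO cortices at E18.5, grouped by the submitters' labels. The library was an mRNA kit on Trizol RNA, sequenced on DNBSEQ. The authors deposited estimated counts, TPM and FPKM values per gene and library. The submitters' processing notes name HISAT2 2.2.1, Bowtie2 2.4.5, RSEM 1.3.1 and GRCm38 (mm10) without giving their roles. Strandedness and the handling of multiply mapped reads are not given in the sources used here. Averages per group in the table were not used.

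Estimated counts (89.4% whole) were rounded. After filterByExpr and TMM scaling, 13570 genes were compared with edgeR 4.0.16 in R 4.3.3 (quasi-likelihood test, unpaired, Benjamini-Hochberg adjustment over all of them, threshold 0.05). The biological coefficient of variation was 0.147. Totals were 15091951 to 16885451 counts, and the limit of 3 counts covers counting error only. The authors' TPM values were used for levels and shares and their FPKM values as an alternative. Single TPM and CPM values were compared by exact two-sided permutation tests (SciPy 1.17.1). No pair of replicates agreed within sampling noise (chi-square per degree of freedom 3.52 to 65.4). Coding sequences were read from GENCODE M21, translated, and aligned locally with Biopython 1.88. Length and GC content were known for 96.7% of genes and were modelled with mgcv 1.9.3. Scripts were tested on simulated counts. Figures used matplotlib 3.10.9 and Python 3.11.15.

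The 14 alternative fits were a replicate block, RLE scaling, library totals, DESeq2 1.42.0, a looser and another filter, each library left out, and a length and GC correction without and with the block. The members and gene lists were chosen with earlier results of these data known. Genes named were the members, from each list those called or otherwise the 3 highest in Ctrl TPM, and the 3 nearest in profile to Ybx1 and to Ybx3, apart from Trim71 and those said to be named after their values were seen. Items withheld for evaluation are not reported here. Other time points and assays were not analysed here.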

Additional observations from a re-analysis of the deposited data

How the results depend on the processing

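The fall of Ybx1 held in all 14 alternative fits (log2 fold change -5.56 to -5.32, adjusted p at most 0.000174), and 0 relatives were called in any of them. Ybx3, Carhsp1 and Csdc2 stayed below 0 (-0.31 to -0.013, -0.36 to -0.14 and -0.38 to -0.079). Ybx2 changed sign: 0.022 with library totals, 0.091 with the length and GC correction, 0.098 with that correction and the replicate block, and -0.11 to 0.074 with 1 library left out. Lin28b ranged from -0.27 to 0.19 with 1 library left out, turning positive without Ctrl library 3 (0.19) or cKO library 2 (0.076). The Ybx1 share in Ctrl ranged from 77.3% to 78.3% with 1 library left out, and another choice of genes for this share and for the relatives' sum was not run. The relatives' summed difference was -45.0 in CPM and ranged from -28.4 to 0.952 TPM with 1 library left out, the latter without Ctrl library 2.

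Over all genes, calls higher and lower were 20 and 73 with DESeq2, 17 and 75 with the length and GC correction, and 28 and 70 with that correction and the block. Without a filter 11 were lower. With 1 library left out they ranged from 3 to 26 and from 5 to 96, the upper ends without Ctrl library 2. Of the listed partner genes, 1 was called lower with DESeq2 (Pabpc1), 1 with the length and GC correction (Ddx6), 0 with that correction and the block, and 0 to 2 with 1 library left out. The cause was not tested. Scaling moved the median of all genes by at most 0.040.

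Same-numbered libraries correlated at 0.082, 0.052 and 0.217 in their deviations from the group means. Differently numbered libraries correlated at -0.135 to 0.060. Ctrl libraries 1 and 3 correlated best with their own number, and Ctrl library 2 with cKO library 1 (0.060). The labels name no pairs, so the main fit was unpaired and the replicate number was used as a block only in alternative fits. With the replicate block, Ybx1 was at -5.46, Ybx2 -0.012, Ybx3 -0.17, Carhsp1 -0.24, Csdc2 -0.22 and Lin28b -0.074, with 4 genes higher and 7 lower, and the block alone changed no call among the members or partner genes. Lin28b had the fewest counts of the members, 36 to 61 per library.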
